A study of Mus musculus with 21 samples.

Results

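The angiogenin ribonuclease family was followed here on 1-colour Agilent arrays of total colon RNA from germ-free (GF) mice. Of 8 named genes (Ang, Ang2, Ang3, Ang4, Ang5, Ang6, Rnase4 and Rnase1), 7 had a probe among the 56605 probes of the day 0 arrays and 6 had one among the 55681 probes of the day 7 arrays, with 7 probes on each. Among the tested probes, 23748 genes were named at day 0 and 21102 at day 7. Members were chosen by name, as every non-control probe whose gene name, or the gene of whose RefSeq transcript, was one of the 8. The brightest probe stood for a gene, and the other one, for Ang3 at day 7, is given beside it. No probe carried the name Ang5. Its transcript was only listed among those matched by the Ang6 and Ang3 probes, so that a reading of these probes could hold RNA of Ang5, Ang6 and Ang3 together. Ang6 had no probe of its own name at day 7.

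All mice were C57BL/6J animals without microbiota, either wild type (GF WT) or deficient for Card9 (GF Card9-/-). Card9 encodes an adaptor protein of innate immune cells that relays signals from fungal receptors. Colons were taken at day 0, before dextran sulfate sodium (DSS, a polymer that injures the colonic epithelium when given in drinking water), and at day 7 of DSS. The 13 day 0 arrays (7 labelled GF Card9-/- and 6 labelled GF WT) and the 8 day 7 arrays (4 and 4) were of different designs. The day therefore cannot be told apart from the design, and levels were compared only between the labels within a day. Array numbers are named as in the labels. Nothing in the labels said whether the day 7 arrays 2 and 2.1 came from one mouse. The SD of their log2 difference over probes was 0.852, against a median of 0.907 over 11 other pairs of day 7 arrays of one label, and were kept as 2 samples. P-values measure only the spread between these samples.

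The targeted gene went against the labels. At day 0, the brighter Card9 probe read between 8.71 and 9.24 (normalised log2 signal) on the 7 arrays labelled GF Card9-/- and between 2.30 and 2.33 on the 6 arrays labelled GF WT. A second probe read between 6.75 and 7.51 and between 2.85 and 3.77, in the same order. At day 7, the Card9 probe read between 7.93 and 8.57 on the 4 arrays labelled GF Card9-/-, 7.85 on the array labelled GF WT 1 and between 2.38 and 2.41 on the other arrays with that label. Whether a probe lies inside the deleted part of the gene was not given in the sources used here. Every direction below is therefore stated for the labels as deposited. The Card9 probes are the only check of the labels made here. Whether the labels were exchanged was not tested. If all of them were, every direction would turn, but GF WT 1 at day 7 would then be the array that goes against its label. Differences with that array moved to the other label were not computed. Between 54.5% and 64.9% of the probes at day 0, and between 42.2% and 57.1% at day 7, were well above background, and none was saturated. The colon epithelium markers (10 genes, among them Hoxb13, Cdx2, Vil1 and Krt20) were well above background on every array. The array labelled GF WT 6 at day 0 stood apart, with Hoxb13 (a distal colon transcription factor) at 9.45 and the small intestinal disaccharidase Sis at 12.72, whereas the other 12 arrays read between 14.53 and 16.47 for Hoxb13 and between 5.44 and 8.22 for Sis. Pancreas genes were high on the array labelled GF Card9-/- 7 at day 0 and on those labelled GF Card9-/- 2.1 and 6 at day 7. The label differences of the members and the medians of the marker lists within a day are given with and without these 4 arrays, called the doubted arrays below.

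Angiogenins are small secreted ribonucleases of the RNase A superfamily. Angiogenin itself (Ang) cleaves transfer RNA in stressed cells and promotes the growth of blood vessels, and mice carry several further copies of the gene that have no one-to-one counterpart in humans. Ang4 is made by secretory cells of the intestinal epithelium and can kill bacteria. Rnase4 is a neighbouring ribonuclease that shares a start with Ang, and Rnase1 is the pancreatic ribonuclease, which digests RNA in the gut. The cytosolic inhibitor Rnh1 binds these enzymes, and Plxnb2 has been described as a receptor for angiogenin.

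All members lay on chromosome 14. The probes of Ang, Rnase4, Rnase1, Ang2 and Ang4 stood between 51721338 and 52384125, and those of Ang3 and Ang6 between 44540232 and 44579551 (mm9, as the files give them). The sequences below are probes of the files, shown because the members are close copies and a probe is only as specific as its 60 bases. Capitals mark the longest run of bases that any of the 36 pairs among these 9 probes shared, which was 18 bases long. The next longest run was 9 bases. Which transcripts each probe binds was not tested. The pseudogene probe (angiogenin pseudogene 1) was not a member and was taken along because its transcript list overlapped that of the Ang4 probe.
Ang4 (chr14:52384066-52384125, minus strand): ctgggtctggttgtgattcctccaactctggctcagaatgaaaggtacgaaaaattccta
Ang2 (chr14:51815315-51815374, minus strand): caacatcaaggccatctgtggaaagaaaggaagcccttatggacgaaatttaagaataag
Ang (chr14:51721338-51721397, plus strand): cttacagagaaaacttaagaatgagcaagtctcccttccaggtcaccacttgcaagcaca
Ang3, the dimmer of its day 7 probes (chr14:44540232-44540291, plus strand): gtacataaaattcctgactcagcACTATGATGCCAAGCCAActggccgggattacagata
Angiogenin pseudogene 1 (chr14:44634913-44634972, minus strand): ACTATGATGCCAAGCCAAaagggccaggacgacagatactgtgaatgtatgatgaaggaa

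At day 0, before DSS, the 5 angiogenin paralogues with a probe read higher on average on the arrays labelled GF Card9-/-, whereas Rnase4 did not differ by more than its spread and Rnase1 was near background on all arrays but 1. For the microbicidal Ang4, the 7 arrays labelled GF Card9-/- read a lowest value of 14.30, a median of 14.90 and a highest value of 15.40, and the 6 arrays labelled GF WT read 12.33, 13.35 and 14.59. The labels overlapped, although 6 of the 7 arrays labelled GF Card9-/- exceeded all 6 of the other label. The array labelled GF Card9-/- 1, at 14.30, lay below those labelled GF WT 3 (14.59) and GF WT 5 (14.35). The means were 14.96 ± 0.38 (SD, n = 7) and 13.51 ± 0.84 (SD, n = 6), a log2 difference of 1.46 with a standard error of 0.335, or 2.74-fold (limma adjusted p = 0.265).

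The other paralogues gave much the same order of arrays. Ang2 read between 11.71 and 12.91, with a median of 12.46, on the arrays labelled GF Card9-/-, and between 10.13 and 12.04, with a median of 10.74, on those labelled GF WT. Its log2 difference was 1.46 (standard error 0.329, limma adjusted p = 0.249). Ang3, by the probe that also lists Ang5 and Ang6, read between 15.37 and 16.47 with a median of 15.89, against between 13.17 and 15.70 with a median of 14.47. Its difference was 1.44 (standard error 0.361, limma adjusted p = 0.338). In Ang2 and Ang3, as in Ang4, 6 of the 7 arrays labelled GF Card9-/- lay above every array with the other label. Ang6, by the probe that also lists Ang5, read between 15.30 and 16.26 with a median of 15.83, against between 13.49 and 15.54 with a median of 14.38 (difference 1.32, standard error 0.309, limma adjusted p = 0.272). Here too 6 of the 7 arrays lay above, and GF Card9-/- 1 (15.30) lay below GF WT 3 only. Ang, the angiogenin proper, differed the least of the paralogues. Its lowest array was GF WT 2, not GF WT 6. It read between 12.62 and 13.50 with a median of 13.07, against between 11.78 and 12.80 with a median of 12.00, a difference of 0.94 with a standard error of 0.203, or 1.91-fold (limma adjusted p = 0.244). The pseudogene probe differed by 1.41 (standard error 0.309, limma adjusted p = 0.246).

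**Figure D1:**
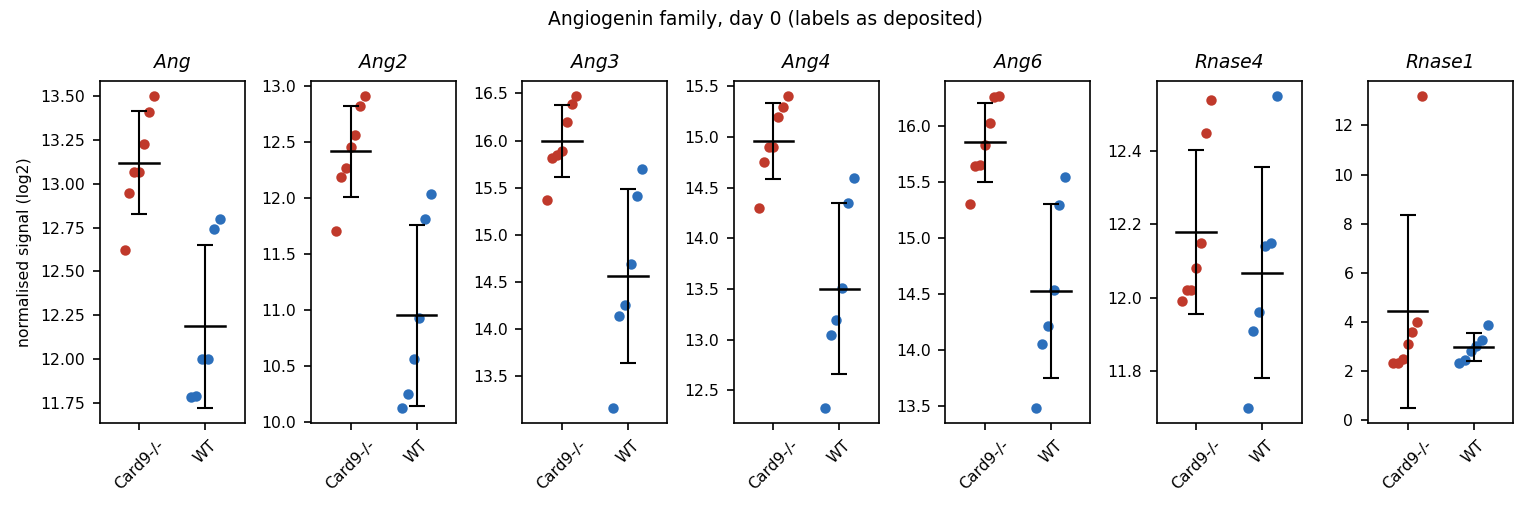
Normalised log2 signal of the 7 members with a probe on the 13 day 0 arrays, 1 panel per gene with its own vertical scale. Points are arrays in order of value, the long bar is the mean and the error bar the SD, for 7 arrays labelled GF Card9-/- (red) and 6 labelled GF WT (blue). The labels overlap in every panel, and in the 5 angiogenin panels 6 of 7 red points lie above all blue points.

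None of the 7 members passed the threshold of an adjusted p under 0.05 at day 0, where 12 of 47410 probes tested (0.0253%) did, 0.0148% being higher and 0.0105% lower on the arrays labelled GF Card9-/-. At an unadjusted p under 0.05, 5 of the 7 were higher on the arrays labelled GF Card9-/-, against 3.89% of all probes in that direction and 5.84% in either. Their unadjusted p in limma ranged from 0.00057 for Ang to 0.00174 for Ang3. A two-sided exact permutation test of the label gave p between 0.00117 (Ang6) and 0.00233 (Ang and Ang2) for these 5, where the smallest value that 7 against 6 arrays allow is 0.000583. The family was singled out with these differences already known, so that the p-values are a description of the spread and no independent support. The labels overlapped for every member, whereas 0.458% of all probes had labels that did not overlap, 0.316% with the GF Card9-/- label higher.

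Day 0 held batches that cut across the labels. Each of the 4 slides carried both labels, and the Ang4 difference was 2.00 on slide 1, 1.12 on slide 2, 0.74 on slide 3 and 2.82 on slide 4, which held the array labelled GF WT 6. It was 1.41 in the first scan session and 1.49 in the second, and all 5 angiogenins were higher for the GF Card9-/- label on every slide. Without the array labelled GF WT 6, on which Ang2, Ang3, Ang4 and Ang6 read lowest, the differences were 1.22 for Ang4, 1.30 for Ang2, 1.16 for Ang3, 1.12 for Ang6 and 0.90 for Ang. With GF Card9-/- 7 left out as well, they were 1.18 for Ang4 (limma adjusted p = 0.475), 1.27 for Ang2, 1.13 for Ang3, 1.09 for Ang6 and 0.88 for Ang.

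At day 7 of DSS, Ang4, Ang3, Ang2 and Ang again had higher means on the arrays labelled GF Card9-/-, by larger log2 differences and with wider spreads than at day 0, and Rnase4 again did not differ by more than its spread. Ang4 read 13.03 on the array labelled GF Card9-/- 2, 15.20 on 2.1, 13.51 on 4 and 14.63 on 6. It read 10.90 on the array labelled GF WT 1, 11.59 on 4, 8.99 on 5 and 13.43 on 6. The labels overlapped only through GF Card9-/- 2, which lay below GF WT 6, and GF WT 5 was far the lowest. The log2 difference was 2.87 with a standard error of 0.944, or 7.29-fold, with a 95% interval from 0.66 to 5.07 (limma unadjusted p = 0.0177, adjusted p = 0.913).

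Ang3 read 14.05, 16.42, 15.93 and 15.71 on the arrays labelled GF Card9-/- 2, 2.1, 4 and 6, and 12.95, 13.19, 9.15 and 14.56 on those labelled GF WT 1, 4, 5 and 6 (log2 difference 3.07, standard error 1.14, limma adjusted p = 0.913). Its dimmer probe, which covers another stretch, read 11.01, 13.38, 11.41 and 12.64 against 9.19, 9.98, 8.0 and 11.49 (difference 2.44, standard error 0.826, adjusted p = 0.913 in limma). Both probes put GF WT 5 lowest and GF Card9-/- 2.1 highest.
Ang2 read 10.34, 12.88, 11.19 and 12.16 on the arrays labelled GF Card9-/- in the same order, and 8.98, 9.41, 6.95 and 10.93 on those labelled GF WT (difference 2.58, standard error 0.893, limma adjusted p = 0.913). Ang read 11.28, 13.37, 12.06 and 12.75 against 10.30, 10.72, 9.75 and 11.81 (difference 1.72, standard error 0.570, adjusted p = 0.913 in limma). By the brightest probes, 3 of 4 arrays labelled GF Card9-/- exceeded all 4 of the other label for each of these 4 genes, and the remaining one was array 2 each time. By the dimmer Ang3 probe 2 of 4 did, as GF Card9-/- 4 (11.41) also lay below GF WT 6 (11.49).

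**Figure D2:**
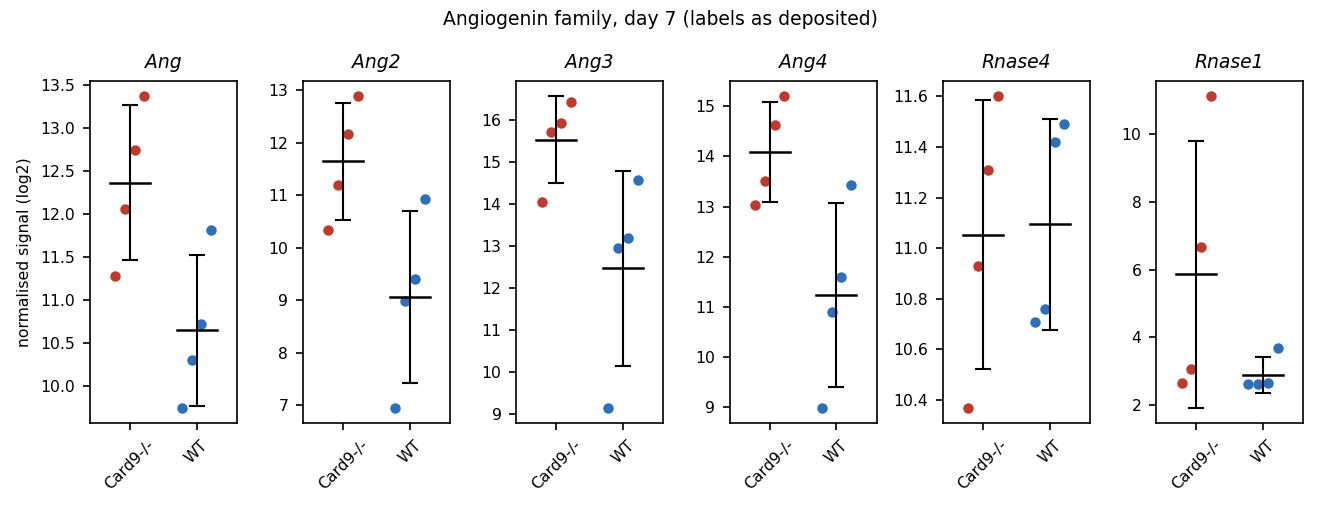
Normalised log2 signal of the 6 members with a probe on the 8 day 7 arrays, 1 panel per gene with its own vertical scale. Points are arrays in order of value, the long bar is the mean and the error bar the SD, for 4 arrays labelled GF Card9-/- (red) and 4 labelled GF WT (blue). In the 4 angiogenin panels 3 of 4 red points lie above all blue points.

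None of the 6 members passed the threshold at day 7, nor did any of the 44643 probes tested (0%), of which 1511 (3.38%) had an unadjusted p under 0.05. Of the 6 members, 4 had such a p in the direction of the GF Card9-/- label, against 2.02% of all probes in that direction. These 4 moved together over the same arrays and are not separate results, and the family was chosen with earlier results of these data known. The two-sided exact permutation p was 0.0571 for the brightest probe of each of the 4 angiogenins and 0.0857 for the dimmer Ang3 probe. The smallest value that 4 against 4 arrays allow is 0.0286. The labels overlapped for every member, whereas 2.13% of all probes had labels that did not overlap, 1.08% with the GF Card9-/- label higher.

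The day 7 differences of the 4 angiogenins kept their direction with each array left out, and their size moved. Without GF Card9-/- 2.1, which read highest for every angiogenin, they were 2.5 for Ang4, 2.77 for Ang3, 2.17 for Ang2 and 1.39 for Ang, and 1 of the 6 members had an unadjusted p under 0.05. Without GF Card9-/- 6 they were 2.69, 3.01, 2.4 and 1.6, with 2 such members, and without GF Card9-/- 4 they were 3.06, 2.93, 2.73 and 1.82, with 3. With both 2.1 and 6 left out, the 2 arrays that also held pancreas genes, they were 2.04 for Ang4, 2.53 for Ang3, 1.70 for Ang2 and 1.03 for Ang, and none had such a p over the 6 arrays left. Without GF WT 5, the lowest array, the differences were 2.12 for Ang4, 1.96 for Ang3, 1.87 for Ang2 and 1.42 for Ang, and without GF WT 6 they were 3.6, 3.76, 3.2 and 2.11. Without GF WT 1, whose Card9 reading was like those of the other label, they were 2.76, 3.23, 2.55 and 1.61. Only 2 slides carried both labels at day 7. On one, GF Card9-/- 2 minus GF WT 6 was -0.41 for Ang4 and -0.50 for Ang3, and on the other, GF Card9-/- 2.1 minus GF WT 4 was 3.61 and 3.23.

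**Figure D3:**
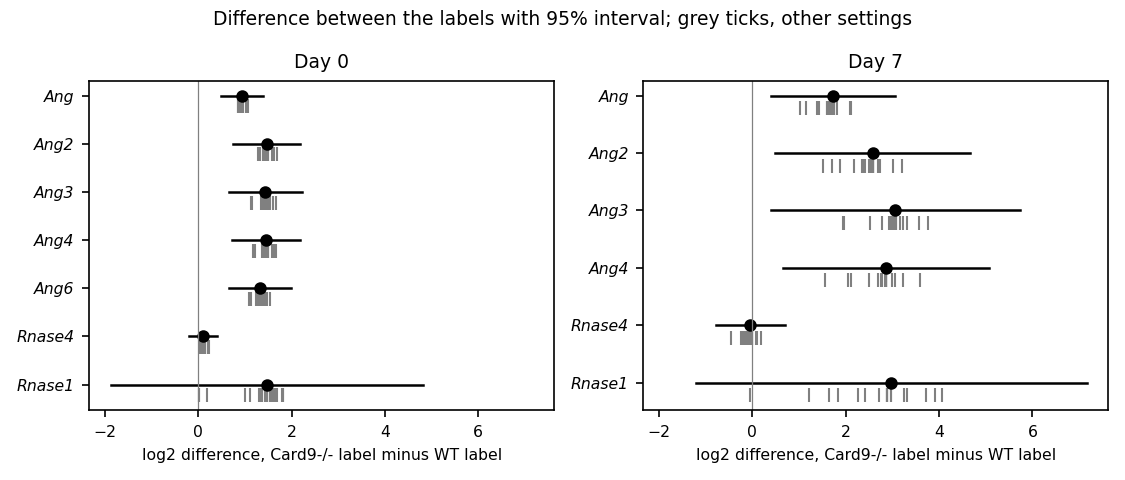
Log2 difference between the labels (GF Card9-/- minus GF WT) for each member at day 0 (left) and day 7 (right). Black points are the estimates, black lines their 95% intervals from limma, and grey ticks the estimates under the other settings and with arrays left out. The angiogenins stay above 0 throughout, from 0.85 to 1.68 at day 0 and from 1.03 to 3.76 at day 7, while the Rnase4 intervals span 0.

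The size of the label difference was then set against that at the other day, over the 23633 probes on both designs that were tested at both days. The day 7 difference minus the day 0 difference was 1.41 for Ang4 (standard error 0.873), 1.63 for Ang3 (1.03), 1.11 for Ang2 (0.834) and 0.79 for Ang (0.526), and the limma adjusted p lay between 0.774 and 0.817. For Rnase4 it was -0.15 (standard error 0.308). Single day 7 arrays moved these values by over 1.5 times. Without GF WT 5 they were 0.66 for Ang4, 0.52 for Ang3, 0.41 for Ang2 and 0.49 for Ang, and without GF WT 6 they were 2.14, 2.33, 1.73 and 1.18. The unadjusted limma p of Ang4 without GF WT 6 was 0.0106 and its adjusted p was 0.318. Without GF Card9-/- 2.1 the values were 1.04, 1.33, 0.70 and 0.45, and without GF Card9-/- 2 they were 1.77, 2.12, 1.55 and 1.15. All these differences stayed above 0. No probe passed the threshold in this comparison (0%), and 1688 (7.14%) had an unadjusted p under 0.05, none of them a member. A change of the difference between the days was not detectable past the threshold with these arrays.

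Ang and Rnase4 share a start in RefSeq but read differently. At day 0, Rnase4 ranged from 11.99 to 12.54 (median 12.08) on the arrays labelled GF Card9-/- and from 11.70 to 12.55 (median 12.05) on those labelled GF WT. Its log2 difference was 0.11 with a 95% interval from -0.19 to 0.41 (limma adjusted p = 0.921), which leaves out a difference as large as that of any of the 5 angiogenins. At day 7 it read 11.31, 11.60, 10.37 and 10.93 on the arrays labelled GF Card9-/- 2, 2.1, 4 and 6, and 10.76, 10.71, 11.42 and 11.49 on those labelled GF WT 1, 4, 5 and 6. The difference was -0.042, with a 95% interval from -0.78 to 0.70 (limma adjusted p = 1). Within each array, the Ang signal minus the Rnase4 signal lay between 0.17 and 1.41 for the GF Card9-/- label and between -0.54 and 0.66 for the GF WT label at day 0, and 6 of 7 arrays with the former label lay above all with the latter. At day 7 it lay between -0.031 and 1.82 against between -1.68 and 0.32, with 3 of 4 above. Without the arrays doubted at each day the Rnase4 difference was 0.24 at day 0 and -0.25 at day 7. The within-array values describe unequal change of the 2 probes and were not tested.

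**Figure D4:**
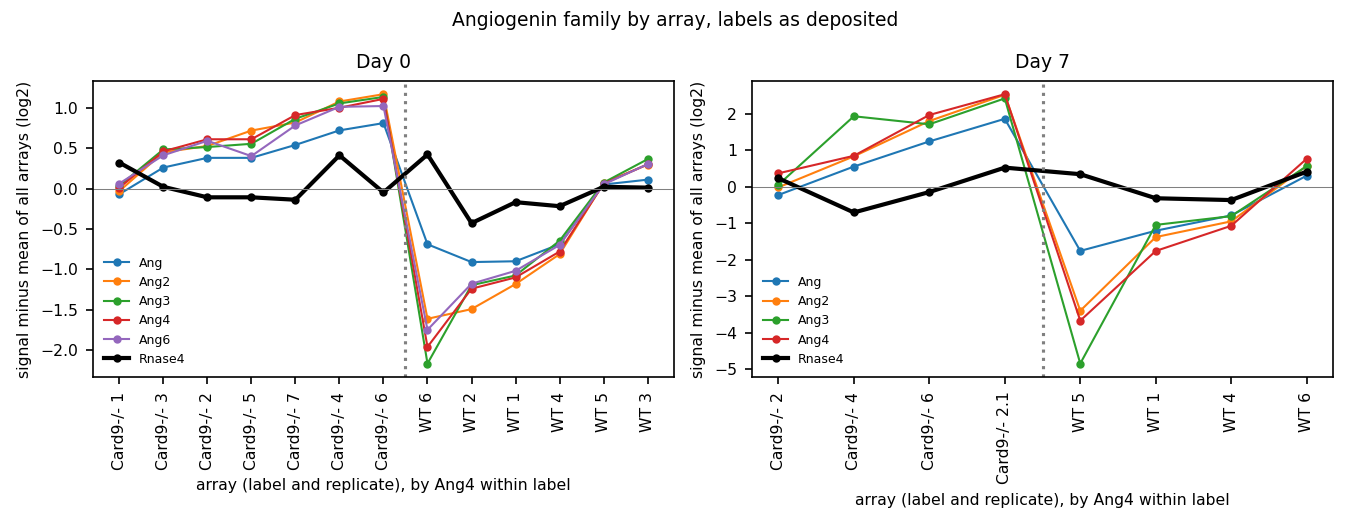
Log2 signal of each angiogenin and of Rnase4 minus its mean over all arrays of the day, at day 0 (13 arrays, left) and day 7 (8 arrays, right). Arrays are ordered by Ang4 within each label, and the dotted line parts the labels. The coloured lines of the angiogenins run together, with WT 6 lowest at day 0 for all of them but Ang, and WT 5 lowest at day 7, while the thick black line of Rnase4 does not follow them.

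The angiogenin probes also moved together within a label. Over the 13 day 0 arrays, the Pearson correlation of deviations from the label means was 0.994 for Ang4 with Ang3 and with Ang6, 0.973 for Ang4 with Ang2 and 0.872 for Ang4 with Ang. It was -0.19 for Ang4 with Rnase4 and 0.15 for Ang with Rnase4. Over the 8 day 7 arrays it was 0.990 for Ang4 with Ang2, 0.937 with Ang, 0.916 with the brighter Ang3 probe and 0.178 with Rnase4. All these values share the same arrays and normalization and are a description. Among 15540 other genes well above background on every day 0 array, those most like Ang4 were Gm1943 (0.880), Hoxaas3 (0.860) and Supt20 (0.851), and those most like Rnase4 were Rassf4 (0.954), Slc39a8 (0.949) and H4c14 (0.943). Ang was most like Fam221a (0.875). At day 7, among 13021 genes and over 8 arrays, Ang4 was most like Gramd3 (0.979), Tbc1d15 (0.978) and Rfk (0.978), Ang was most like Fasn (0.984), the fatty acid synthase, and Rnase4 was most like Ints4 (0.987).

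The 250 bases before the RefSeq starts of the members were compared (GRCm38.p6), since the angiogenins, Ang among them, moved together and Rnase4, which shares a start with Ang, did not. Table entries were found for 6 of the 8 members, and Ang2 and Ang3 are named only. The sequences of Ang5 and Ang6 were identical over all 250 bases, and 211 of 268 aligned positions (78.7%) were identical between Ang4 and Ang6. Between Ang4 and Ang, whose signals also moved together, 46.1% were, within the range of the other pairs of distinct sequences (44.9% to 50.2%). Ang and Rnase4 shared 1 sequence, and Rnase4 had a further start of its own. Capitals mark TATATA, searched on both strands and held by 5.25% of 32851 such sequences of all genes, and AGGAAGT, likewise on both strands and held by 7.69%. The motifs do not overlap one another.
Ang4 (chr14:51773591-51773840, minus strand): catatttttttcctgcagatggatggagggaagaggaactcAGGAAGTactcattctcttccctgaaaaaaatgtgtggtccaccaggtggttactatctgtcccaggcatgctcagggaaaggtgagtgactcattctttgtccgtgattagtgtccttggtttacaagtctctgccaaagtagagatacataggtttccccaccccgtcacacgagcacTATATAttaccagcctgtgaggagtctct
Ang6 (chr14:44006419-44006668, minus strand): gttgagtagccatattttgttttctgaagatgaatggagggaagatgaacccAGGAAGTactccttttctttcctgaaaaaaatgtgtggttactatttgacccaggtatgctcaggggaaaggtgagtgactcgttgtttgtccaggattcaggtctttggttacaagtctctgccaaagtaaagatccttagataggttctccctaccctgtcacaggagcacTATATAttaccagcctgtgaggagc
Ang and Rnase4, shared (chr14:51090827-51091076, plus strand): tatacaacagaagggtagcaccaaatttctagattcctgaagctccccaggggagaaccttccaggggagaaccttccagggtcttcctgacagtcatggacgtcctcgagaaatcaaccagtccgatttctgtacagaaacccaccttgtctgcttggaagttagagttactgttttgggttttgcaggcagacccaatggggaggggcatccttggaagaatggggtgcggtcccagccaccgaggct
Rnase4, further start (chr14:51095750-51095999, plus strand): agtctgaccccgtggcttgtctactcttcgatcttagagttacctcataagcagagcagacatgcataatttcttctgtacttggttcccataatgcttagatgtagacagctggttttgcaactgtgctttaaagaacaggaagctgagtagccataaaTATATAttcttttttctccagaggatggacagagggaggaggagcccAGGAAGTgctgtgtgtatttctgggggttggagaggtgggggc
TATATA began at -29 in Ang4 and at -25 in Ang6, counted from the first base of the transcript, and at -90 before the further Rnase4 start. Neither motif was found in the sequence that Ang and Rnase4 share. The starts used in these colons were not measured.

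Rnase1 followed the pancreas genes. At day 0 it read 13.19 on the array labelled GF Card9-/- 7 and between 2.30 and 3.99 on the other 12 arrays, none of which was well above background. The mean of 11 pancreas genes (among them the trypsinogens Prss1 and Prss2, the carboxypeptidases Cpa1 and Cpb1 and the lipase Pnlip) was 16.63 on that same array and between 5.02 and 5.79 on the others. At day 7, Rnase1 read 3.05, 6.66, 2.63 and 11.13 on the arrays labelled GF Card9-/- 2, 2.1, 4 and 6, and 2.63, 2.62, 2.63 and 3.68 on those labelled GF WT 1, 4, 5 and 6. The mean of the 12 pancreas genes was 4.37, 11.16, 5.87 and 15.45 on the former and between 4.21 and 4.54 on the latter. Rnase1 was thus well above background on 2 of 4 arrays labelled GF Card9-/- and on none labelled GF WT, and was at least 3.14-fold higher by the means against the lowest measurable signal. This bound rests on GF Card9-/- 6, without which the mean lay under that signal and no fold is given. It was 2.62-fold without 2.1, 6.03-fold without 2 and 6.64-fold without 4. The log2 difference was 1.47 at day 0 (standard error 1.54, limma adjusted p = 0.912) and 2.98 at day 7 (standard error 1.79, limma adjusted p = 0.913). Without GF Card9-/- 7 it was 0.0078 at day 0, and 0.19 with GF WT 6 left out too. At day 7 it was 1.22 without GF Card9-/- 6 and -0.050 without 2.1 and 6. The median difference of the pancreas genes was 1.53 at day 0 and 4.84 at day 7, and 0.098 and 0.70 without the doubted arrays of each day.

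**Figure D5:**
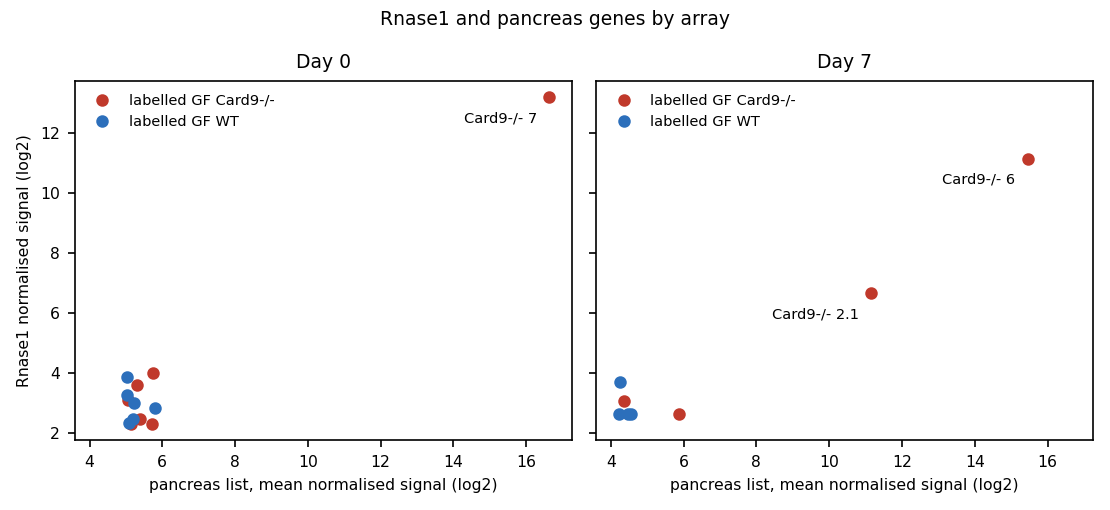
Normalised log2 signal of Rnase1 against the mean of the pancreas genes on each array, at day 0 (11 genes, 13 arrays, left) and day 7 (12 genes, 8 arrays, right). Red points are arrays labelled GF Card9-/- and blue points arrays labelled GF WT. The named arrays Card9-/- 7, 2.1 and 6 are the only ones with Rnase1 above 4.

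The cell type markers were read on the same arrays, since fewer cells of a type and less RNA per cell cannot be told apart in whole colon. None of the markers tested passed the threshold at either day. The colon epithelium genes had a higher mean for the GF Card9-/- label in 8 of 10 at day 0 (median log2 difference 0.093, against 0.015 over all probes) and in 9 of 10 at day 7 (median 0.30, against 0.0013). Without the doubted arrays, which are GF WT 6 and GF Card9-/- 7 at day 0 and GF Card9-/- 2.1 and 6 at day 7, they were higher in 6 of 10 (median 0.056) and 7 of 10 (median 0.074), and without GF WT 5 at day 7 in 8 of 10 (median 0.12).

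Of 11 genes of goblet and deep crypt secretory cells, 10 had a higher mean for that label at day 0 (median 0.12) and 8 did at day 7 (median 0.30), a median like that of the colon epithelium genes on that day. With the doubted arrays left out, 9 of 11 were higher at each day (medians 0.14 and 0.18), and without GF WT 5 at day 7, 7 of 11 were (median 0.085). Without GF WT 6 alone at day 0, 9 of 11 were higher and the median was 0.058. The list mean over the 10 genes with a value on every day 0 array lay between 16.16 and 16.34 for the GF Card9-/- label and between 15.67 and 16.13 for the GF WT label. The gene left out of it was the mucin Muc2, which had no value on GF WT 2 and was the only one with a lower mean for the GF Card9-/- label (-0.16). With Muc2, over the other 12 arrays, the labels overlapped, the lowest value for the GF Card9-/- label and the highest for GF WT both rounding to 16.34, and 6 of 7 arrays labelled GF Card9-/- exceeded all 5 of the other label. At day 7 the list mean lay between 15.26 and 15.78 against between 14.76 and 15.45. The resistin-like Retnlb differed by 1.35 at day 0 (standard error 0.817, limma adjusted p = 0.912) and by 3.02 at day 7 (1.69, adjusted p = 0.913). These differences were 1.6 and 1.61 without the doubted arrays, and that at day 7 was 1.7 without GF WT 5. Atoh1, which directs the secretory lineage, differed by 0.28 at day 0 (0.0848, limma adjusted p = 0.540) and by 0.32 without the doubted arrays. At day 7 it differed by 0.081 (0.234, limma adjusted p = 0.978), and by -0.15 without GF WT 5. Reg4 (-0.82, standard error 0.937) and Spink4 (-0.23, 0.155) had lower means for the GF Card9-/- label at day 7, with limma adjusted p of 0.918 and 0.913.

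At day 7, Retnlb was highest on GF Card9-/- 2.1 (15.26) and lowest on GF WT 5 (6.41), as was Ang4. The list means of colon epithelium, small intestine and secretory genes had the same highest and lowest arrays, and that of the smooth muscle genes had them the other way round, with 16.11 on GF WT 5 and 13.41 on GF Card9-/- 2.1. All 6 smooth muscle genes had lower means for the GF Card9-/- label at both days (medians -0.45 and -0.45). Without the doubted arrays 6 of 6 were lower at day 0 (median -0.68) and 4 of 6 at day 7 (median -0.027), and without GF Card9-/- 2.1 alone 4 of 6 were higher at day 7. Leaving out GF WT 5 gave a day 7 median of -0.13, with 6 of 6 lower. At day 0 the smooth muscle list mean ranged from 12.92 to 16.45 among the arrays labelled GF Card9-/- and from 13.71 to 16.29 among those labelled GF WT. The part of epithelial, secretory and muscle RNA in the angiogenin differences was not tested.

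Paneth cell genes were higher for the GF Card9-/- label in 5 of the 7 tested at day 0 (median 0.24, list mean between 7.81 and 9.74 against between 7.68 and 8.20) and in 5 of 5 at day 7 (median 0.60). The day 7 list means, between 6.04 and 6.58 against between 5.38 and 5.74, did not overlap. However, Mmp7 and Defa21 were well above background on 0 of 8 arrays and Defa3 on 1, so that this list mean holds background signal. The counts without the doubted arrays were 5 of 7 (median 0.57) and 5 of 5 (median 0.61). Without GF WT 5 at day 7, 4 of 5 were higher (median 0.60). The defensins, which define these cells, were mostly at background. At day 0 Defa3 was well above it on 2, Defa21 on 1 and Defa24 on 6 of 13 arrays, and at day 7 Defa3 was on 1 of 8. Lyz1, Mmp7, Mptx2 and Itln1 were well above background on every day 0 array. On that day Mptx2 differed by 1.37 (standard error 0.861, limma adjusted p = 0.912) and read 11.59 on GF WT 6. Mmp7 differed by 0.245 (0.517, limma adjusted p = 0.965) and Lyz1 by -0.089 (0.49, limma adjusted p = 0.99). Intelectin Itln1 differed by 0.67 at day 0 (standard error 0.276, limma adjusted p = 0.787) and by 1.56 at day 7 (0.573, adjusted p = 0.913), and by 0.90 and 1.5 without the doubted arrays. The small intestine genes at day 0 turned with GF WT 6. With it, 7 of 10 were lower for the GF Card9-/- label (median -0.15) and Sis differed by -0.88. Without it, 7 of 10 were higher (median 0.28) and Sis differed by 0.19. Without GF Card9-/- 7 as well, 6 of 10 were higher (median 0.17). At day 7, 6 of 10 were higher (median 1.02), without the doubted arrays 7 of 10 were (median 0.66), and without GF WT 5, 7 of 10 were (median 0.51). Sis read 5.35, 9.64, 9.53 and 9.04 on the arrays labelled GF Card9-/- 2, 2.1, 4 and 6, and 3.72, 6.00, 3.17 and 7.76 on those labelled GF WT 1, 4, 5 and 6. It was highest and lowest on the same arrays as Ang4, and, as for Ang4, GF Card9-/- 2 alone lay below GF WT 6. Its difference was 3.23 (standard error 1.33, limma adjusted p = 0.913), and 2.28 without the doubted arrays, with 6 of the 8 arrays well above background. The values on GF WT 1 and 5 lay under the lowest measurable signals of these arrays (4.20 and 5.12). Of the 4 small intestine genes with a lower mean for the GF Card9-/- label at day 7, Fabp6 differed by -0.60 (standard error 0.131, limma adjusted p = 0.913). Its probe was well above background on all 8 arrays. The part of these genes' cells in the angiogenin readings was not tested.

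The other ribonucleases of the superfamily and the partners of angiogenin did not differ past the threshold. Of 16 listed genes, 14 were tested at day 0, 6 with a higher mean for the GF Card9-/- label and 8 with a lower one (median -0.047), and 11 at day 7, 8 higher and 3 lower (median 0.62). Without the doubted arrays the counts were the same and the medians were -0.074 and 0.62. Most were dim, and only Rnase10 and Ear6, an eosinophil-associated ribonuclease, at day 0, and Rnase10 and Ear2 at day 7, were well above background on every array. Ear6 differed by 0.093 at day 0 (standard error 0.153, limma adjusted p = 0.944) and Ear2 by 0.59 at day 7 (0.409, adjusted p = 0.913). Rnase10 differed by 0.059 at day 0 and by -0.34 at day 7. Of the eosinophil markers, 1 of 4 tested was well above background on every array at day 0 and 0 of 5 at day 7, and 2 of 4 (median -0.17) and 4 of 5 (median 0.47) had a higher mean for the GF Card9-/- label. Without the doubted arrays 3 of 4 (median 0.21) and 4 of 5 (median 0.61) did. At day 7, 3 of the 5 were well above background on no array, and the list mean, between 3.71 and 5.02, lay in the range of the arrays' lowest measurable signals (3.58 to 5.12), so that its levels were not compared. The inhibitor Rnh1 differed by -0.018 at day 0 (standard error 0.0843) and by 0.019 at day 7 (0.226), and the receptor Plxnb2 by -0.067 (0.0563) and -0.14 (0.166), with limma adjusted p between 0.912 and 1 for both genes.

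The genes around the family were counted as well. Between 43540600 and 53384125 of chromosome 14 (mm9), from 1 Mb before to 1 Mb after the members, 240 further probes, the pseudogene probe among them, were tested at day 0 and none passed the threshold. Of these, 144 (60%) had a higher mean for the GF Card9-/- label, against 57% of all probes, and the median difference was 0.027, against 0.015. At an unadjusted p under 0.05, 9 probes (3.75%) were higher and 3 (1.25%) lower, against 3.89% and 1.95% of all probes. At day 7, from 43540232 on, 104 of 214 probes (48.6%) were higher, against 50.4% of all, none passed the threshold and the median was -0.0065. At an unadjusted p under 0.05, 4 (1.87%) were higher and 4 (1.87%) lower, against 2.02% and 1.36% of all probes.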

How the data were processed

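Colon RNA of 21 arrays was hybridised on 1-colour Agilent arrays and scanned, and the authors extracted the deposited intensity values with Agilent Feature Extraction 10.7.3.1. The deposited detection p-value of each spot, made by the authors with the same tool, compares it with its background. The authors' deposited table of log2 normalized values was used as an alternative. Here, log2 processed signals were quantile normalised within each day, outlier spots left out and spots of a probe averaged. A probe was tested if this p was under 0.05 on at least 60% of the arrays of a label. Labels were compared with limma 3.58.1 in R 4.3.3 (eBayes, Benjamini-Hochberg over all probes tested, threshold 0.05). The difference between the days came from 1 limma fit to all 4 groups. Day 7 self-tests on simulated data recovered 18% of 2-fold and 61% of 4-fold changes, and day 0 self-tests 63% and 87%. RefSeq named 29032 of the tested probes at day 0 and 24260 at day 7, and the files' own names 10401 and 4255. The genes named are the family, Card9, the other RNase A genes that were well above background on every array of a day, Rnh1, Plxnb2, marker lists and the 3 genes most alike to a member. The members, lists and motifs were chosen with earlier results of these data known. Alternatives were other scalings, filters, blocks for slide, session and array number, and each array left out. Leaving out arrays together and the mean of arrays 2 and 2.1 as 1 sample were added after seeing the data. So were the marker lists without single arrays and the secretory list with Muc2. The number of arrays limits the precision.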

Additional observations from a re-analysis of the deposited data

Results flagged for a closer look

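In groups of 4 to 10 arrays, 58 sets of values were searched for 1 array far from the rest of its label, and 5 were found, where chance gives about 5% of such sets. Rnase1 read 13.19 on the day 0 array labelled GF Card9-/- 7, with the next array of that label at 3.99, and the mean of the pancreas genes was 16.63 there, with the next at 5.76. The mean of the pancreas genes was 5.79 on the day 0 array labelled GF WT 2, with the next at 5.22. The mean of the colon epithelium genes was 13.89 on the day 0 array labelled GF WT 6, with the next at 14.74. Rnase1 read 3.68 on the day 7 array labelled GF WT 6, with the next at 2.63, and neither value was well above background. None of the 5 concerned an angiogenin probe.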

How the results depend on the processing

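Across 24 alternatives at day 0 and 18 at day 7, no member passed the threshold, and the angiogenins stayed higher for the GF Card9-/- label in all of them. The Ang4 difference ranged from 1.18 to 1.67 at day 0 (adjusted p from 0.155 to 0.577) and from 1.56 to 3.6 at day 7 (adjusted p from 0.689 to 1). Rnase4 at day 7 turned positive without GF Card9-/- 4 (0.185), GF WT 5 (0.068) or GF WT 6 (0.090) and was -0.447 with the replicate block (adjusted p = 0.832), and it ranged from -0.22 to 0.185 when arrays labelled GF Card9-/- were left out and from -0.171 to 0.090 when arrays labelled GF WT were. Rnase1 turned negative at day 7 without GF Card9-/- 2.1 and 6 (-0.050), a choice made after seeing the data. The difference between the days ranged from 0.66 to 2.14 for Ang4, from 0.52 to 2.33 for Ang3, from 0.41 to 1.73 for Ang2, from 0.45 to 1.18 for Ang, from -0.25 to 2.97 for Rnase1 and from -0.33 to 0.076 for Rnase4 when single arrays were left out, the lowest being -0.28 among the arrays labelled GF WT. The number of probes past the threshold at day 0 was 27 with normexp, 22 with the authors' normalized table and 7 with the replicate block, and from 8 to 16 with 1 array left out. At day 7 it was 2 without GF Card9-/- 2.1 and 6, and from 0 to 1 with 1 array left out. Arrays that share a number did not all deviate together (correlations from -0.022 to 0.375 at day 0, and 0.11 and 0.029 for the 2 shared numbers at day 7), own-number matches were best for 2 of 6 numbers at day 0, and the replicate block gave differences of 1.42 for Ang4 at day 0 and, at day 7, of 1.56 for Ang4, 1.94 for Ang3, 1.51 for Ang2 and 1.14 for Ang (adjusted p = 0.832 for each), with no member past the threshold. With the mean of arrays 2 and 2.1 as 1 sample, the Ang4 difference at day 7 was 2.86. Members at an unadjusted p under 0.05 at day 7 numbered 4 with all arrays, 1 without GF Card9-/- 2.1 (Ang4 2.5) and 0 without 2.1 and 6 (Ang4 2.04), over fewer arrays. The well above background filter left Rnase1 untested at day 0. For Rnase1, signal near background limits every value outside the 3 arrays that hold pancreas genes.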
